A study of Arabidopsis thaliana with 12 samples.

Results

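The 42 genes described here encode proteins of the cytosolic 40S ribosomal subunit of Arabidopsis thaliana, in 16 families, among them RPSa, RPS2, RPS3, RPS4, RPS6, RPS9, RPS10, RPS13, RPS14, RPS16, RPS18, RPS24, RPS27 and RPS28. They were selected by locus identifier and family, with no threshold on a measured value, and all 42 were found among the 32548 genes of the deposited table. RNA was sequenced from 20-day-old seedlings of 4 genotypes with 3 samples each: gte4, eml1 eml2, the triple mutant gte4 eml1 eml2, and wild type (WT). GTE4 is a bromodomain protein (bromodomains bind acetylated lysines of histones), and the EML proteins are EMSY-like chromatin proteins; the title of the series places them in 1 complex, and the comparisons ask which transcripts change on loss of GTE4, of the EML proteins or of both. All plants grew for 12 days on plates and then in soil with 16 h of light and 8 h of dark at 22 °C, with no treatment. The labels name neither the mutant alleles nor the background accession of WT. They also do not say whether the 3 samples of a genotype were separate plants or pools, so p-values measure the spread between these samples, which may be technical.

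The 40S subunit binds the mRNA and decodes it, and joins the 60S subunit to form the translating ribosome. In plants each of its proteins is encoded by a small family of paralogs, and loss of single paralogs is known in Arabidopsis for narrow, pointed first leaves or for arrested embryos. Ribosomal protein genes are highly transcribed in dividing tissue and are co-regulated with growth through the TOR kinase, whose downstream S6 kinase phosphorylates RPS6. Known elements of plant ribosomal protein promoters are the telo-box and the site II motif, and TCP factors bind site II.

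The 250 bases upstream of the annotated start are shown for paralogs of 2 families because results below turn on them. These are RPSa, with a wide gap in level between its paralogs, and RPS3, the 1 pair whose ratio was called between genotypes. That call was lost without any of 7 single samples. It was also lost with a replicate block, under which 1 pair alone could not be called. Sequences and coordinates are those of the TAIR10.1 reference from RefSeq, written in the direction of transcription, and capitals mark the telo-box (AAACCCTAA) and site II (TGGGCC or TGGGCT), each searched on both strands, where matches may overlap. The RPSa genes are AT1G72370 (chr1:27244932-27245181, minus strand) and AT3G04770 (chr3:1311130-1311379, minus strand).
AT1G72370: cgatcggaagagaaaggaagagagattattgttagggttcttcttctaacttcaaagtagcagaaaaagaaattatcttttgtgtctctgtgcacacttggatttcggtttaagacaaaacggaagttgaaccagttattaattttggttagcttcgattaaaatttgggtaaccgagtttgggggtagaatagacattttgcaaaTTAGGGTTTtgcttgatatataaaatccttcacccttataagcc
AT3G04770: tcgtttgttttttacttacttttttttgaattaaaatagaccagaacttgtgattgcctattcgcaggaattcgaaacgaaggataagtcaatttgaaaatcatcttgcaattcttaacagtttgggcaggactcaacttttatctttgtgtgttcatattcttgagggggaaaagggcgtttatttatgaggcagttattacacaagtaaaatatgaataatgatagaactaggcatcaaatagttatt
The RPS3 genes are AT3G53870 (chr3:19951174-19951423, plus strand) and AT5G35530 (chr5:13712289-13712538, minus strand).
AT3G53870: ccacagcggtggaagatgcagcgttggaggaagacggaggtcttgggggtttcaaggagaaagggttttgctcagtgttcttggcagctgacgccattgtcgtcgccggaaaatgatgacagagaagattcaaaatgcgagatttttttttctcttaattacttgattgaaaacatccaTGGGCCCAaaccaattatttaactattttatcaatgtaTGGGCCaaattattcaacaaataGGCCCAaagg
AT5G35530: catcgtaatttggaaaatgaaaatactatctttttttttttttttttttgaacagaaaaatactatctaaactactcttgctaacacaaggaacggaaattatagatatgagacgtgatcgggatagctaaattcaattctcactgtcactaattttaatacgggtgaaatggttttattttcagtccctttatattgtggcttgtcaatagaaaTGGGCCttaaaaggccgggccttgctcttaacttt

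Site II occurred in 23 of the 42 windows (54.8%), against 21.6% of 21413 tested protein-coding genes, and the telo-box in 5 of 42 (11.9%), against 2.12%. Among 53 other 40S genes, site II occurred in 38 windows (71.7%) and the telo-box in 2 (3.77%). The abundant RPSa gene AT1G72370 has a telo-box that begins 44 bases before the start and no site II, and the window of its weakly expressed paralog AT3G04770 has neither. The windows of the abundant genes AT5G18380 (RPS16) and AT3G11510 (RPS14) also have neither. AT2G36160, a less abundant RPS14 gene, has 2 telo-boxes and 2 site II matches. AT3G53870 has 4 site II matches and its RPS3 paralog AT5G35530 has 1. In AT3G53870 the matches that begin 71 and 69 bases before the start overlap, as both strands of TGGGCCCA were counted. A match describes letters in the window, not a bound site. In gte4 against WT the median log2 change was 0.27 over the 22 tested genes with site II and 0.28 over the 19 without.

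The deposited values are normalized read counts, and their total ran from 31990484 to 34322625 per sample. GTE4 fell to between 61.0 and 99.2 normalized counts in gte4 and between 78.6 and 97.3 in triple mutants, against 1618 to 1753 in WT. EML2 stood at 94.7 to 116.8 in eml1 eml2 and 28.8 to 32.1 in triple mutants, against 546 to 612 in WT. EML1 was not reduced, at 907 to 1006 in eml1 eml2 and 973 to 1043 in triple mutants, against 868 to 1004 in WT; a sum over the gene does not check the eml1 mutation. Leaf photosynthesis markers summed to between 1876638 and 2334246 over all samples, with 1 of 12 at 0 in every sample. Root markers summed to 2779 to 3233 in gte4, 1805 to 2001 in eml1 eml2 and 2938 to 3133 in triple mutants, against 1408 to 2043 in WT, with 1 to 3 of 6 at 0; gte4 and the triple mutant lay above WT, and eml1 eml2 overlapped it.

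Levels of the 40S genes spanned a wide range, compared here per kilobase of exon. Among the most abundant was AT1G72370 (RPSa, the homolog of the animal laminin receptor precursor), with 17580.0 ± 819.9 normalized counts per kb in gte4, 16070.2 ± 282 in eml1 eml2, 15866 ± 722 in triple mutants and 14836 ± 1282 in WT (SD, n = 3 each). Below it, AT5G18380 (RPS16) with 12124 ± 1025 and AT3G11510 (RPS14) with 12196 ± 851 per kb in WT did not differ beyond their spread. In WT 1 gene made up 98.8% of the RPSa family, 97.5% of RPS9 and 86.0% of RPS2, each per kb. In RPS6, RPS13 and RPS27 the main paralogs were more even: AT4G31700 and AT5G10360 held 53.9% and 46.1% of RPS6. Minor genes were AT3G04770 (RPSa) with 1.22% of its family, AT5G39850 (RPS9) with 2.46% and AT3G04230 (RPS16) with 2.67%.

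**Figure D1:**
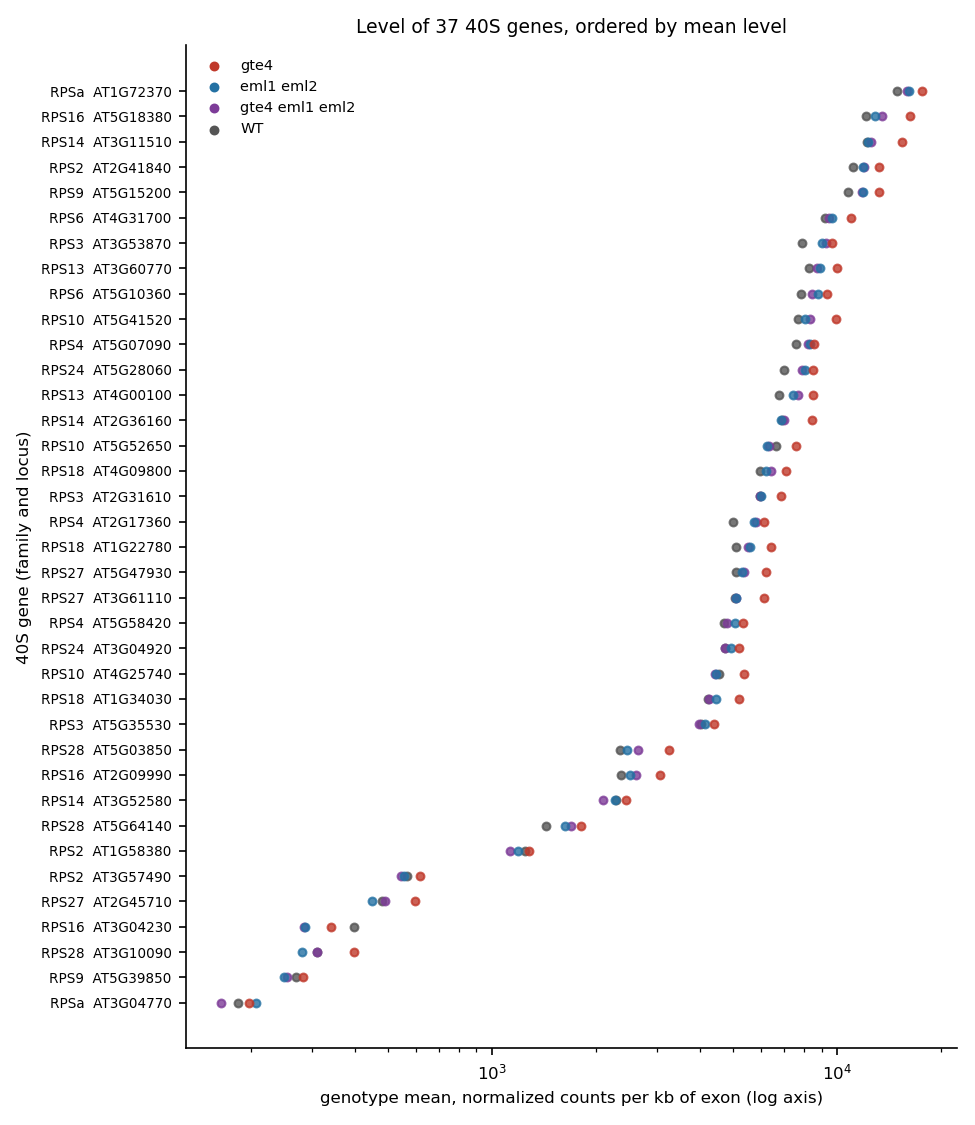
Level of 37 40S genes in the 4 genotypes (points, means of 3 samples), in normalized counts per kb of exon on a log axis. AT1G72370 (RPSa) is highest of those plotted in every genotype, 31 of them lie above 1000 per kb in every genotype, and the other 6 do not.

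1 gene could not be measured. AT1G59359 (RPS2) was at 0 or at the floor of the table in all 12 samples. Every stretch of 150 bases of its transcript, the read length, also occurs in AT1G58380, AT1G58684 or AT1G58983, so that its reads cannot be told apart from theirs. AT1G58380 (RPS2, XW6) shares 1.65% of its stretches, and the other 40 genes share none. Shorter overlaps are not covered by this check. Exons of another gene, on either strand, overlap 9.62% of the exon bases of AT1G72370 and 8.96% of those of AT3G04770 (both RPSa). The remaining 41 genes were tested, each on log2(value + 1) with limma across 22315 genes, and genes with a Benjamini-Hochberg adjusted p below 0.05 were called.

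Small rises were called for most 40S genes in gte4. Of the 41, 32 were called higher and 0 lower in gte4 against WT, where 12.1% of all tested genes were called higher and 13.8% lower. The median log2 change was 0.28, against -0.0046 over all tested genes. The rises of the called genes ran from 12.9% to 38.2%, with a median of 22.1%. All samples of gte4 lay above all samples of WT for 32 of the 41 genes and below for 1; over all genes this held for 18.6% and 20.6%. In bulk RNA, a larger share of cells rich in these transcripts and more transcript per cell cannot be told apart. Markers of floral organs and of dividing cells moved too. In gte4 against WT 6 of 11 floral organ identity genes were called higher, and the list summed to 1456 to 1458 in gte4 against 977 to 1197 in WT. So were 7 of 17 mitosis and cytokinesis genes, a list that summed to 7345 to 8063 in gte4 against 5800.4 to 6857 in WT. None of these 2 lists was at 0 in any sample. The root markers, given above, averaged 2980 ± 232 in gte4 and 1749 ± 320.0 in WT (SD, n = 3 each), without overlap, and 1 of the 3 tested was called higher. The part of these 3 lists in the 40S result was not tested.

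Families of the mRNA entry side of the subunit, as known from yeast and mammalian ribosomes, are RPS2, RPS3 and RPS9. Of their 8 tested genes 4 were called higher in gte4: AT2G41840 (RPS2) by 0.25 (SE 0.05, adjusted p = 0.00162), AT2G31610 and AT3G53870 (RPS3) by 0.20 and 0.29, and AT5G15200 (RPS9) by 0.30 on the log2 scale. AT5G15200 is the main RPS9 gene. The values of AT3G53870 were 10640.1, 10711 and 10851 in gte4, 9971, 9656 and 10386 in eml1 eml2, 10443, 10076 and 10377 in triple mutants, against 8726, 8439 and 9168 in WT. Every mutant sample lay above every WT sample. The values of its paralog AT5G35530 were 5283, 5145 and 4999 in gte4, 4914, 4685 and 4971 in eml1 eml2, 4690.0, 4566 and 4739 in triple mutants, against 4557, 4907 and 4699 in WT, with a log2 change in gte4 of 0.12 (SE 0.046, adjusted p = 0.0608) and all 3 gte4 samples above the WT samples.

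The head of the subunit holds RPS10, RPS16 and RPS18, and 8 of their 9 genes were called higher in gte4. RPS16 reaches with its tail towards the tRNA in the P site. AT5G18380, its main gene, had 17644, 18951 and 16744 in gte4, 14263, 13959 and 13919 in eml1 eml2, 15215, 13716 and 15160.0 in triple mutants, against 11975, 14072 and 13706 in WT. The gte4 samples stood above all others, and the log2 change against WT was 0.43 (SE 0.063, adjusted p = 0.000158). AT2G09990, a second RPS16 gene, had 3131, 3231 and 2877 in gte4, 2692, 2447 and 2457 in eml1 eml2, 2811, 2376 and 2707 in triple mutants, against 2228, 2551 and 2363 in WT. Here too gte4 was highest, with a log2 change of 0.37 (SE 0.07, adjusted p = 0.00116). The third, AT3G04230, went the other way: it had 317, 366 and 330.4 in gte4, 277, 327 and 251 in eml1 eml2, 308, 273 and 267 in triple mutants, against 364, 437 and 377 in WT. It was called lower in eml1 eml2, at -0.47 (SE 0.11, adjusted p = 0.0058), and in the triple mutant, at -0.47 (SE 0.11, adjusted p = 0.00339), but missed the threshold in gte4, at -0.21 (SE 0.11, adjusted p = 0.172), where the groups overlap. Among RPS18 genes AT1G22780 (PFL, whose loss is known to give pointed first leaves) had 5266, 5040.3 and 4705 in gte4, 4378, 4355 and 4309 in eml1 eml2, 4237, 4265 and 4375 in triple mutants, against 3826, 4092 and 3938 in WT. Its gte4 samples were above all others, with a log2 change of 0.34 (SE 0.049, adjusted p = 0.00012).

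Around the platform and mRNA exit lie RPSa, RPS14, RPS27 and RPS28, and 9 of their 11 tested genes were called higher in gte4. The largest rise of all 41 genes was that of AT5G03850 (RPS28), with 3248, 3151 and 2701 in gte4, 2276, 2291 and 2290.2 in eml1 eml2, 2561, 2319.5 and 2495 in triple mutants, against 2122, 2295 and 2149 in WT. The 3 gte4 samples lay above the 9 others, and the log2 change was 0.47 (SE 0.065, adjusted p = 8.54e-05). AT5G64140 (RPS28) had 1752, 1853 and 1648 in gte4, 1550.0, 1623 and 1529 in eml1 eml2, 1609, 1658 and 1638 in triple mutants, against 1357, 1406 and 1395 in WT, with every mutant sample above every WT sample and a log2 change in gte4 of 0.34 (SE 0.054, adjusted p = 0.00033). The minor RPS28 gene AT3G10090 had 215, 236 and 191 in gte4, 144, 159.5 and 151 in eml1 eml2, 179.9, 155 and 167 in triple mutants, against 162, 183 and 156 in WT; it changed by 0.36 (SE 0.12, adjusted p = 0.0329) in gte4, which missed the threshold when WT replicate 1 (adjusted p = 0.0842) or 3 (0.111) or gte4 replicate 1 (0.0818) or 2 (0.14) was left out, after removal of the length trend (0.0506), under scaling by library totals (0.0571) and with only the 2 genotypes fitted (0.0643).
In RPS14 AT2G36160 had 7474, 7467 and 6837 in gte4, 5838, 5615 and 6311 in eml1 eml2, 6122, 5670.5 and 6242 in triple mutants, against 5571, 6378 and 5934 in WT, and rose by 0.29 (SE 0.061, adjusted p = 0.00291) in gte4. The smaller RPS14 gene AT3G52580 had 2189, 2283 and 2113 in gte4, 2057, 1996 and 2042 in eml1 eml2, 1871, 1764 and 1992 in triple mutants, against 1886, 2111 and 2158 in WT, and its change of 0.099 (SE 0.061, adjusted p = 0.259) missed the threshold.

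Of the body families RPS4, RPS6, RPS13 and RPS24, 8 of 9 genes were called higher in gte4. AT5G10360 (RPS6, EMB3010) had 11226, 11016 and 11232 in gte4, 10610.2, 10597 and 10312 in eml1 eml2, 10441, 9829 and 9945 in triple mutants, against 9252, 9571 and 9282 in WT, with every mutant sample above WT and a gte4 change of 0.25 (SE 0.042, adjusted p = 0.000421). AT2G17360 (RPS4) had 7666, 7065 and 7608 in gte4, 7004, 6944 and 6961 in eml1 eml2, 7173, 6875 and 7118 in triple mutants, against 5825, 6192 and 6168 in WT, and changed by 0.30 (SE 0.046, adjusted p = 0.000244) in gte4. AT5G28060 (RPS24) had 7629.5, 7299.9 and 7073 in gte4, 6491, 7213 and 7078 in eml1 eml2, 6608, 6846 and 6921 in triple mutants, against 6021, 6067 and 6008 in WT, and changed by 0.28 (SE 0.049, adjusted p = 0.000604). In both, every mutant sample lay above every WT sample.

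Every tested gene was called higher in gte4 in 8 families, among them RPS4, RPS6, RPS10, RPS13, RPS18, RPS27 and RPS28. The 9 genes not called included AT3G04770 (RPSa), AT1G58380 and AT3G57490 (RPS2), AT5G35530 (RPS3), AT5G39850 (RPS9), AT3G52580 (RPS14), AT3G04230 (RPS16) and AT3G04920 (RPS24). Of the 34 genes with a mean of at least 1000 normalized counts, 30 were called, with a median SE of 0.055. Of the 7 tested genes below that mean 2 were called, with a median SE of 0.12, so small changes were harder to detect there. Their median log2 change was also lower, at 0.092, against 0.28 for the 34 genes.

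**Figure D2:**
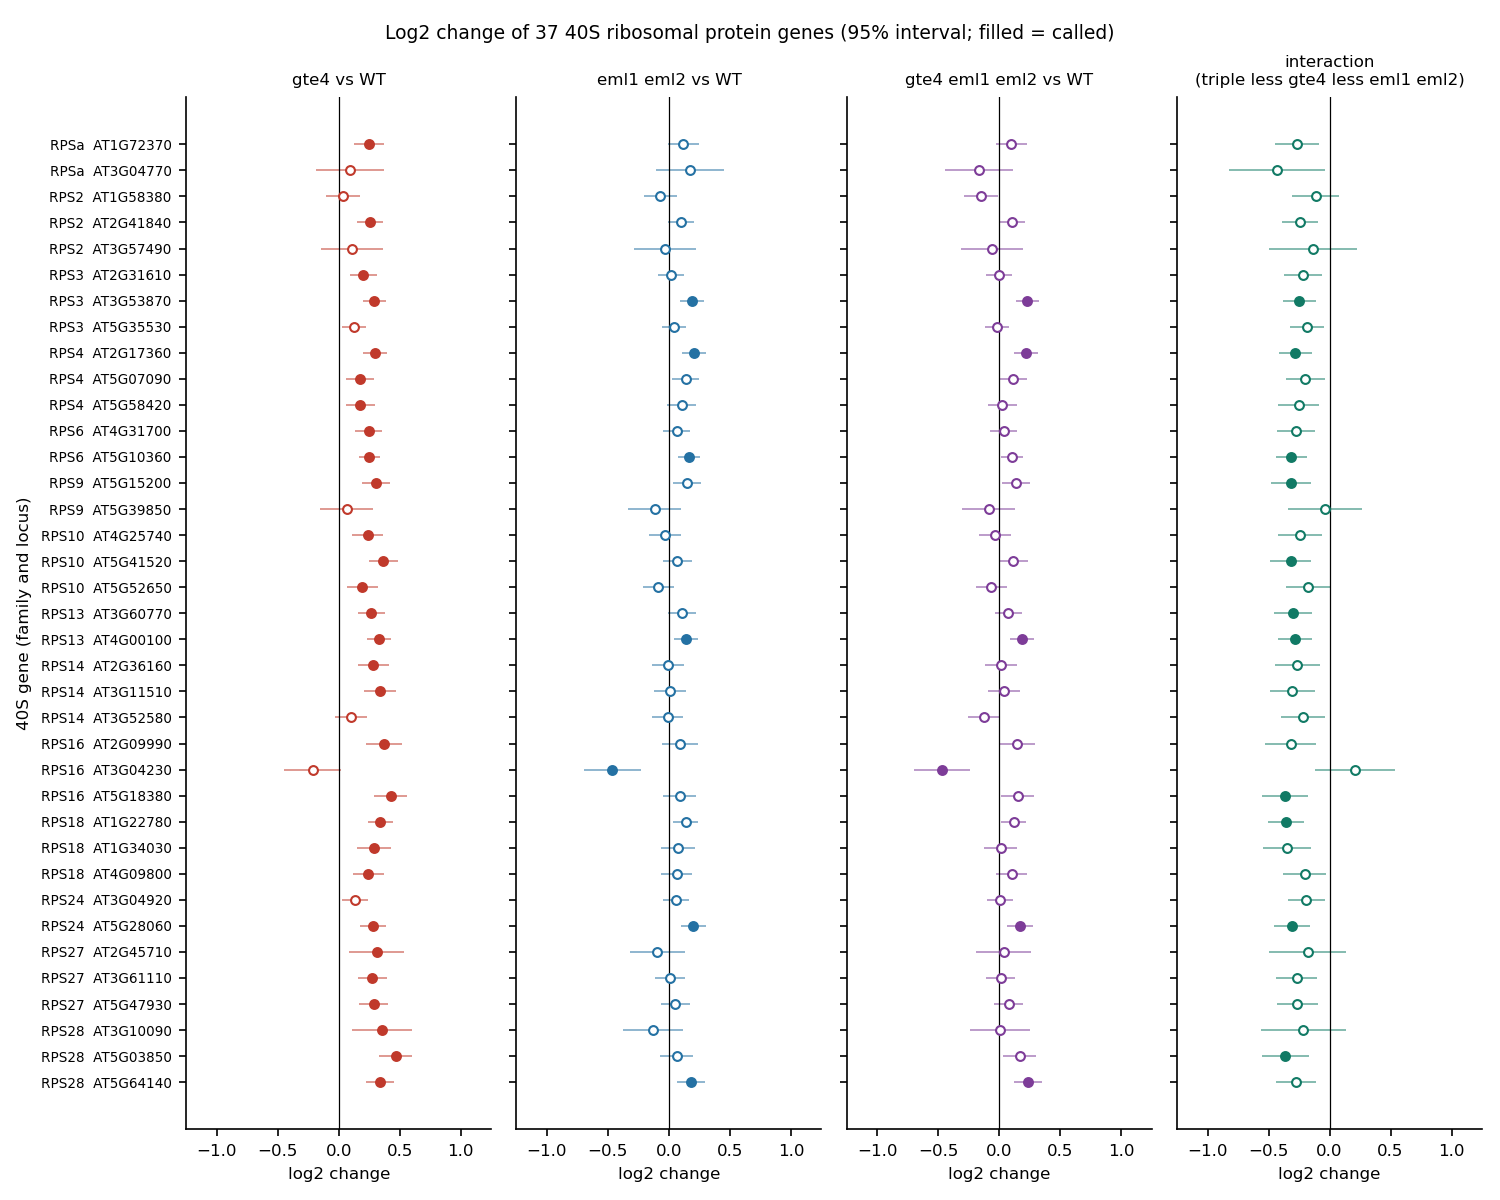
Log2 change of 37 of the 41 tested 40S genes in gte4, eml1 eml2 and the triple mutant against WT, and in the interaction (columns), with 95% intervals; filled points were called. In the gte4 column 29 points are filled to the right of 0 and none to the left.

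The eml1 eml2 line showed fewer changes in the values as deposited. Of 41 genes 8 were called higher and 1 lower in eml1 eml2 against WT, where 11.6% and 12% of all genes were called, with a median log2 change of 0.065. For 13 genes all eml1 eml2 samples lay above all WT samples and for 2 below (18.8% and 20.1% of all genes). The 8 included AT3G53870 (RPS3), AT2G17360 (RPS4), AT5G10360 (RPS6), AT4G00100 (RPS13A), AT5G28060 (RPS24) and AT5G64140 (RPS28). The largest were AT2G17360, at 0.20 (SE 0.046, adjusted p = 0.00479), and AT5G28060, at 0.20 (SE 0.049, adjusted p = 0.00766). The comparison shares its WT samples with that of gte4. The count was 4 without WT replicate 1 and 5 without eml1 eml2 replicate 1 or replicate 2. Higher calls over all genes then numbered 2767, 1942 and 1908, in that order, against 2592 with all samples.

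In the triple mutant 7 genes were called higher and 2 lower against WT, where 15.4% and 18.2% of all genes were called, with a median of 0.041. All triple mutant samples lay above all WT samples for 14 genes and below for 2 (21.3% and 24.3% of all genes). The 7 included AT3G53870, AT2G17360, AT4G00100, AT5G28060 and AT5G64140. The largest rises were AT5G64140, at 0.24 (SE 0.054, adjusted p = 0.00282), AT3G53870, at 0.23 (SE 0.045, adjusted p = 0.000916), and AT2G17360, at 0.22 (SE 0.046, adjusted p = 0.00158). The 2 falls included AT3G04230, given above. The count lower was 1 with the length trend removed or with only the 2 genotypes fitted, and without WT replicate 2, WT replicate 3 or triple mutant replicate 3. Over all genes these settings left 3348 to 3837 called lower, against 4060 in the main fit. The count of 7 was 13 under scaling by library totals and 12 under median-of-ratios or trimmed-mean scaling. Over all tested genes the count higher was 3435 as deposited. It was 3329 under scaling by totals, 3818 under median-of-ratios and 3930 under trimmed-mean scaling.

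These counts move with a trend across the length of transcripts. The 42 genes are short, with 538 to 1474 exon bases and a median of 1042, and 35 of them lie in the shortest of 5 equal classes of the genes with a mean of at least 50, which ends at 1242 bases. In that class the median log2 change of all genes against WT was 0.024 for gte4, -0.11 for eml1 eml2 and -0.12 for the triple mutant. In the longest class it was -0.064 for gte4, 0.10 for eml1 eml2 and 0.093 for the triple mutant. With the trend removed from each sample, 32 of the 41 genes were called higher in gte4 (14.6% of all genes), 27 in eml1 eml2 (12%) and 26 for the triple mutant (17.9%). The medians were then 0.26 in gte4, 0.18 in eml1 eml2 and 0.17 for the triple mutant. Called lower were 0 genes in gte4 (12.3% of all genes), 1 in eml1 eml2 (10.5%) and 1 for the triple mutant (15.9%). Relative to genes of their length, a majority of the 40S genes was thus called higher in each mutant. The source of the length trend was not tested.

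**Figure D3:**
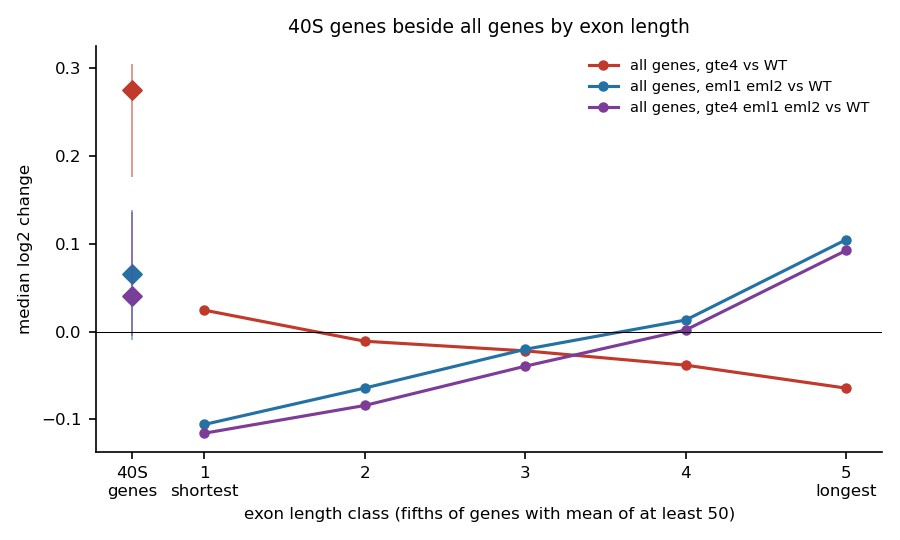
Median log2 change of all genes with a mean of at least 50 in 5 classes of exon length (lines), beside the median of the 41 tested 40S genes (diamonds, with the interquartile range as a bar), for gte4, eml1 eml2 and the triple mutant against WT. The 40S median of 0.28 in gte4 lies far from the shortest class at 0.024, and those of eml1 eml2 (0.065) and the triple mutant (0.041) lie above classes at -0.11 and -0.12.

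Sample by sample, the 42 genes took 0.896%, 0.907% and 0.851% of the table's total in gte4, 0.807%, 0.828% and 0.802% in eml1 eml2, and 0.796%, 0.811% and 0.810% in triple mutants, against 0.733%, 0.766% and 0.757% in WT. The lowest sample of each mutant lay above the highest WT sample. The median over genes, relative to the WT mean on the log2 scale, was 0.30, 0.31 and 0.20 in gte4, 0.079, 0.079 and 0.047 in eml1 eml2, and 0.094, 0.031 and 0.069 in triple mutants, against -0.076, 0.051 and 0.0096 in WT. Here gte4 stood apart, its replicate 3 lowest, and the other mutants overlapped WT. With the length trend removed it was 0.26, 0.27 and 0.24 in gte4, 0.19, 0.17 and 0.15 in eml1 eml2, and 0.20, 0.18 and 0.18 in triple mutants, against -0.054, 0.029 and 0.011 in WT, and no mutant overlapped WT.

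**Figure D4:**
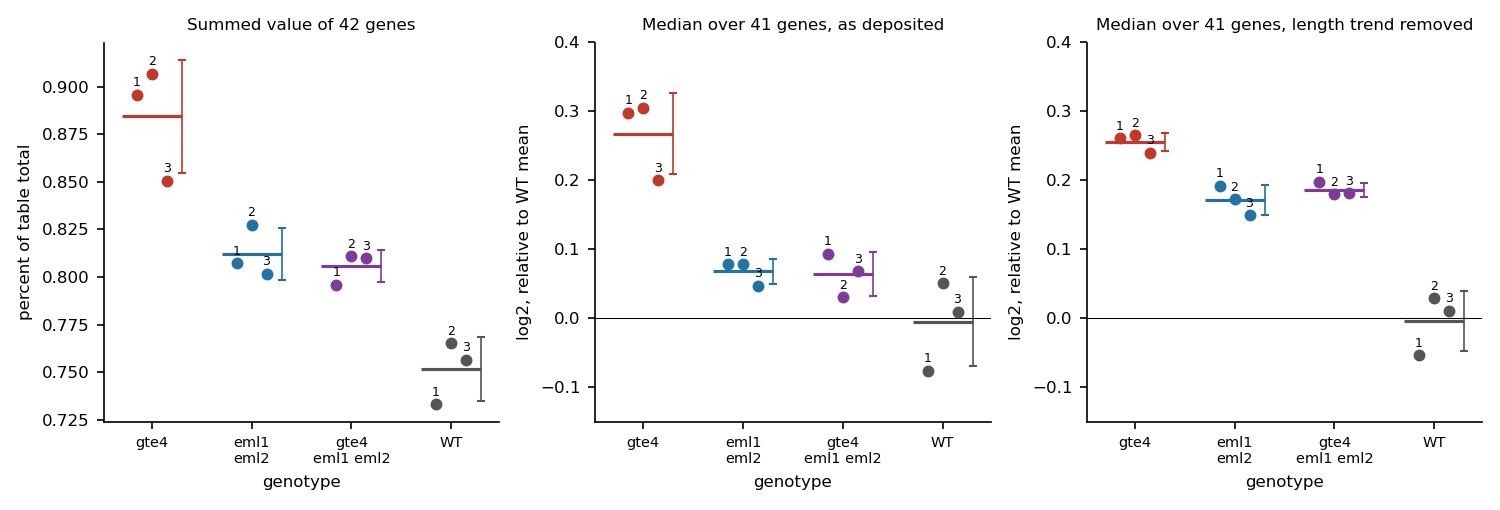
Summed value of the 42 genes as a percent of the table total, and the median log2 value of the 41 tested genes relative to the WT mean, as deposited and with the length trend removed, in each sample (points, numbered by replicate), with genotype mean and SD (bars). The gte4 samples are highest in all 3 panels, and all mutants stand clear of WT in the last.

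Adding the eml mutations to gte4 was compared next. EML2 itself was lower in the triple mutant than in eml1 eml2, with a log2 change of -1.77 (limma adjusted p = 3.27e-07). The labels do not say whether both lines carry the same eml2 allele, so comparisons that involve both may set unlike eml2 states side by side. Against gte4, the triple mutant had 0 genes called higher and 17 lower of 41, where 4.47% and 5.08% of all genes were called, with a median log2 change of -0.19 and all 41 genes below 0. The triple mutant lay wholly below gte4 for 31 genes and wholly above for 0 (15.5% and 14.3% of all genes). The largest called falls were AT3G11510 (RPS14), at -0.30 (SE 0.062, adjusted p = 0.0102), and AT5G03850 (RPS28), at -0.30 (SE 0.065, adjusted p = 0.0122). With the length trend removed 1 was called lower (1.56% of all genes) and 0 higher (0.972%), with a median of -0.065. The count was 1 without gte4 replicate 1 or gte4 replicate 2, 2 without triple mutant replicate 2 and 11 without triple mutant replicate 3. Lower calls over all genes then numbered 254, 167, 274 and 652, in that order, against 1133 with all samples. Adding gte4 to eml1 eml2 gave 0 calls either way by limma, where 0.426% and 1.23% of all genes were called higher and lower; the median was -0.0046, and 1 gene had an unadjusted p under 0.05. The triple mutant lay wholly above eml1 eml2 for 2 genes and wholly below for 2 (7.23% and 12.7% of all genes). With the length trend removed 0 were called higher (0.654% of all genes) and 0 lower (1.17%). The 95% intervals of the 41 changes lay between -0.66 and 0.39. This comparison shares no sample with that of gte4 and WT, in which 32 were called.

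Set directly against eml1 eml2, gte4 had 19 genes called higher and 0 lower, where 5.77% and 7.76% of all genes were called, with a median of 0.18. All gte4 samples lay above all eml1 eml2 samples for 29 genes and below for 0 (14.9% and 18.6% of all genes). AT5G03850 changed by 0.40 (SE 0.065, adjusted p = 0.00204). The count was 9 without gte4 replicate 1 and 7 without gte4 replicate 2. Higher calls over all genes then numbered 477 and 399, against 1287 with all samples. With the length trend removed 4 were called higher (3.76% of all genes) and 0 lower (3.12%), with a median of 0.057.

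The interaction asks whether the change of the triple mutant equals the sum of those of gte4 and eml1 eml2. It was below 0 for 39 of 41 genes, with a median of -0.27, against -0.0070 over all genes, and 14 were called lower and 0 higher, where 1.92% and 1.02% of all genes were called. Those with the smallest adjusted p included AT5G10360 (RPS6), at -0.31 (SE 0.059, adjusted p = 0.00993), AT1G22780 (RPS18), at -0.36 (SE 0.069, adjusted p = 0.0111), and AT5G28060 (RPS24), at -0.31 (SE 0.069, adjusted p = 0.0247). This contrast uses the same gte4 and WT samples as that of gte4 and WT. It also takes the eml mutations of eml1 eml2 and the triple mutant as alike, though EML2 differed between them as given above. With the length trend removed the median was -0.23 and 15 were called lower (2.27% of all genes) and 0 higher (1.04%). The count depended on the test: it was 1 without the mean-variance trend and robust moderation, 8 with no minimum mean and 9 under scaling by library totals. It was 3 without gte4 replicate 1, eml1 eml2 replicate 2 or triple mutant replicate 1, 4 without gte4 replicate 2 or triple mutant replicate 2, 5 without WT replicate 1, WT replicate 3 or eml1 eml2 replicate 1, and 6 without eml1 eml2 replicate 3 or triple mutant replicate 3. Over all genes these omissions left 174 to 352 called lower, against 428 with all samples.

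Paralogs of a family were then compared within each library, since a ratio removes what both share. Of 37 pairs, 34 had a mean of at least 20 for both genes. An exact permutation test over all 369600 ways to place the 12 samples in 4 genotypes, adjusted over the 34 pairs, called 1 pair, and 12 had an unadjusted p under 0.05. The called pair was RPS3: the log2 ratio of AT5G35530 to AT3G53870 was -1.01, -1.06 and -1.12 in gte4, -1.02, -1.04 and -1.06 in eml1 eml2, -1.15, -1.14 and -1.13 in triple mutants, against -0.94, -0.78 and -0.96 in WT (exact permutation p = 0.000779, adjusted p = 0.0265). Every mutant sample lay below every WT sample. With a replicate block the exact p was 0.00347 and the adjusted p 0.059, above the threshold. The block allows so few arrangements that 1 pair alone could not be called over 34 pairs, whatever its values. The call was lost without WT replicate 2, gte4 replicate 2, any eml1 eml2 sample, or triple mutant replicate 1 or 3. The adjusted p over all single omissions lay between 0.0265 and 0.0994. These genes are the pair with 1 and 4 site II matches shown above. The remaining RPS3 gene, AT2G31610, has 3 matches in its window. Its mean log2 ratio to AT3G53870 was -0.37 in gte4, -0.46 in eml1 eml2, -0.52 in triple mutants and -0.29 in WT. The exact permutation p was 0.0216 (adjusted p = 0.0779). For the ratio of AT5G35530 to AT2G31610 the exact permutation p was 0.276 (adjusted p = 0.418). A link of site II matches to these ratios was not tested.

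The other pairs missed the threshold. For RPS28 the log2 ratio of AT5G64140 to AT5G03850 was -0.89, -0.77 and -0.71 in gte4, -0.55, -0.50 and -0.58 in eml1 eml2, -0.67, -0.48 and -0.61 in triple mutants, against -0.65, -0.71 and -0.62 in WT (exact permutation p = 0.00812, adjusted p = 0.0779), lowest in gte4. The ratio of AT3G10090 to AT5G64140 was -3.02, -2.97 and -3.10 in gte4, -3.42, -3.34 and -3.33 in eml1 eml2, -3.15, -3.41 and -3.28 in triple mutants, against -3.06, -2.94 and -3.15 in WT (exact permutation p = 0.00948, adjusted p = 0.0779), and the eml1 eml2 samples lay below all gte4 and WT samples. For RPS14 the ratio of AT3G52580 to AT2G36160 was -1.77, -1.71 and -1.69 in gte4, -1.50, -1.49 and -1.63 in eml1 eml2, -1.71, -1.68 and -1.65 in triple mutants, against -1.56, -1.59 and -1.46 in WT (exact permutation p = 0.0123, adjusted p = 0.0779), with gte4 and the triple mutant below WT. The RPS16 gene AT3G04230 over AT5G18380 had mean log2 ratios of -5.71 in gte4, -5.63 in eml1 eml2 and -5.70 for the triple mutant, against -5.07 in WT (exact permutation p = 0.0139, adjusted p = 0.0779).

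**Figure D5:**
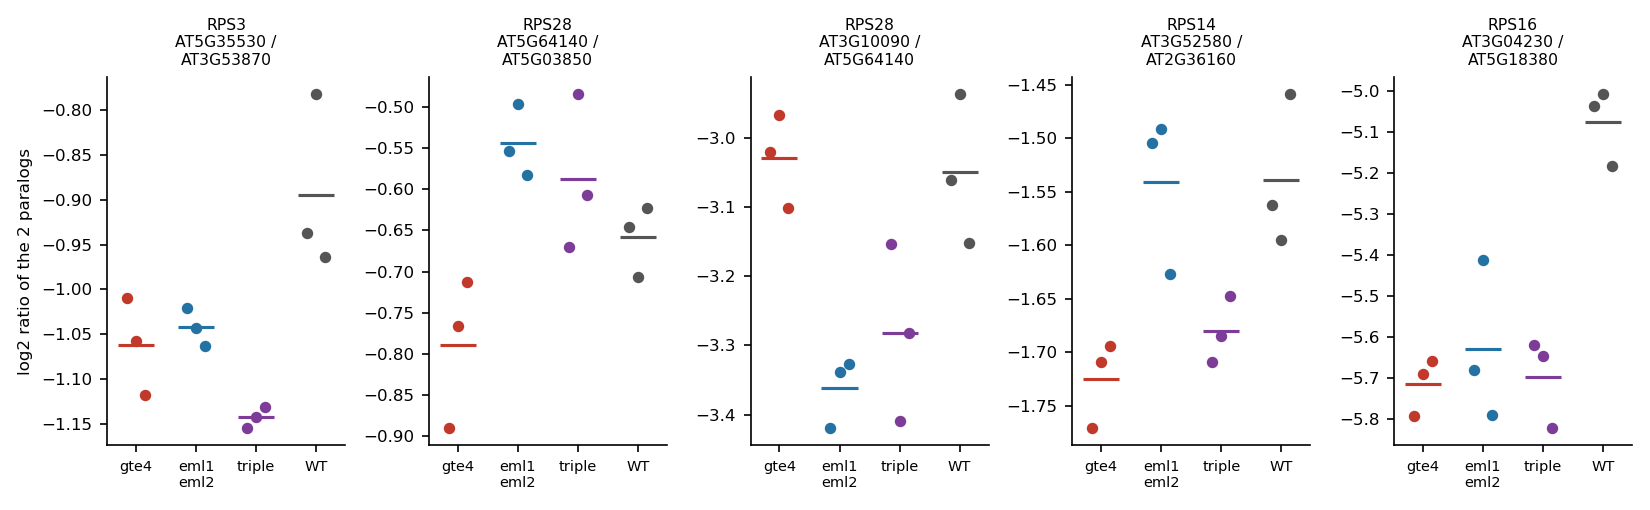
Log2 ratio of 2 paralogs in each sample (points) with the genotype mean (bars), for 5 of the pairs with the smallest exact p. In the RPS3 panel the mutant samples lie between -1.15 and -1.01 and the WT samples between -0.96 and -0.78.

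Other genes of the ribosome were read beside the 40S list. Of 50 tested genes of the remaining 40S families, 30 were called higher and 2 lower in gte4, 7 and 5 in eml1 eml2, and 11 and 4 in the triple mutant, each against WT. Of 56 tested 60S genes, selected by their annotated product text, 30 were higher and 1 lower in gte4, 6 and 6 in eml1 eml2, and 14 and 6 in the triple mutant. Of 29 ribosome biogenesis genes 7 were higher in gte4, 13 in eml1 eml2 and 11 for the triple mutant, and 0 were lower. The 8 tested plastid small-subunit genes had 0 calls in gte4 by limma, 4 lower in eml1 eml2 and 2 lower in the triple mutant. Over all tested genes 12.1% were called higher and 13.8% lower in gte4, 11.6% and 12% in eml1 eml2, and 15.4% and 18.2% in triple mutants, and the eml1 eml2 counts of the other 40S and the 60S genes lie near these shares. Of 7 genes of TOR and S6 kinase signalling 1 was higher and 3 lower in gte4, 1 and 2 in eml1 eml2, and 2 and 2 in the triple mutant. In eml1 eml2 and the triple mutant 8 and 6 of the 11 floral organ identity genes were called higher, with sums of 1606 to 2073 and 1487 to 1787, and 13 and 12 of the 17 mitosis and cytokinesis genes, with sums of 9231 to 9384 and 8601 to 9580.4.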

How the data were processed

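RNA of 12 seedling samples (4 genotypes, 3 each) was read as paired 150-base reads, per the labels' protocols. The submitters' processing notes name bcl2fastq, HISAT2, edgeR and the TAIR10 build; versions, the counting program, the annotation and the strand are not given in the sources used here. The deposited values are a signal, normalized by the authors and count-like but not whole numbers, and whole reads could not be recovered. The test planned for log values was therefore used, and the count test planned only for whole counts was not. Values were log2 transformed after adding 1, and the 22315 genes with a mean of at least 1 were fitted with limma 3.58.1 in R 4.3.3, 1 coefficient per genotype, with eBayes set to trend and robust; adjusted p-values are Benjamini-Hochberg over all tested genes within each of 7 comparisons. Fold changes of low genes are understated by the added 1. Alternatives were the added constant, the minimum mean, 3 scalings, only the 2 genotypes, plain moderation, a replicate block, a loess length trend removed per sample, and each sample left out.

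Paralog ratios were tested by exact permutation (smallest possible p 6.49e-05), adjusted over 34 pairs. An exact permutation test of 3 against 3 samples alone cannot go below p = 0.1. Both tests were checked on simulated data.

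Replicate numbers come from the sample titles. Same-numbered samples deviated together, with all 3 correlations over 0.1 among genes with a mean of at least 50, for gte4 with WT (0.262 to 0.506), eml1 eml2 with WT (0.121 to 0.576), the triple mutant with eml1 eml2 (0.131 to 0.595) and gte4 with eml1 eml2 (0.177 to 0.624).

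Single values of some of the 42 genes are not reported here. The genes, the gene lists and the tests were chosen with earlier results of these data known. Genes given in every sample were the 3 largest called rises and falls in each comparison with WT, the 4 interaction calls with the smallest adjusted p, genes with a mean under 20, and the 5 paralog pairs with the smallest p. Gene names, exon lengths, transcripts and promoter windows come from the RefSeq annotation of TAIR10.1, whose nuclear chromosome lengths equal those of TAIR10. Python 3.11.15 with pandas 2.3.3, numpy 2.4.6 and matplotlib 3.10.9 was used for the remaining steps.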

Additional observations from a re-analysis of the deposited data

Results flagged for a closer look

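The difference itself was tested for each 40S gene: the interaction takes the gte4 and the eml1 eml2 changes away from that of the triple mutant (all log2, against WT), fitted by limma over all 12 samples with Benjamini-Hochberg adjustment over 22315 genes. It was called for 14 genes, each with a value below 0. On the log2 scale it was, among these, -0.25 for AT3G53870 (RPS3) and -0.28 for AT2G17360 (RPS4). It was -0.31 for AT5G10360 (RPS6), -0.32 for AT5G15200 (RPS9) and -0.32 for AT5G41520 (RPS10B). It was -0.30 for AT3G60770 and -0.28 for AT4G00100 (both RPS13), -0.36 for AT5G18380 (RPS16) and -0.36 for AT1G22780 (RPS18). It was -0.31 for AT5G28060 (RPS24) and -0.36 for AT5G03850 (RPS28). Of these, AT5G10360 was called under every alternative run. AT1G22780 was called under all but plain moderation, where its adjusted p was 0.057. Others were less stable over 23 alternatives. The call was lost in 17 for AT3G53870, 13 for AT5G03850, 13 for AT5G18380, 10 for AT2G17360 and 8 for AT5G28060.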

How the results depend on the processing

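No result named here changed direction with a call under any alternative. With the length trend removed, the counts called higher were 27 in eml1 eml2 and 26 for the triple mutant (28 and 26 with a replicate block added), with medians of 0.18 and 0.17, and the count lower in the triple mutant was 1 with and without the block. Over all 22315 genes 2684 and 3994 were called higher (3495 and 4818 with the block). The triple mutant then had 1 gene lower than gte4 with and without the block (median -0.065). In gte4, 4 genes were then higher than in eml1 eml2 (6 with the block), with a median of 0.057. The interaction had 23 lower with both the trend removed and the block. With both, calls over all genes were 885 lower in the triple mutant against gte4, 1603 higher in gte4 against eml1 eml2 and 994 lower in the interaction. Plain moderation, without trend and robust weights, gave 1 lower in gte4, 5 higher and 2 lower in eml1 eml2, 1 lower in the triple mutant against gte4, 9 higher in gte4 against eml1 eml2, and 1 lower in the interaction. The triple mutant had 13 genes higher under scaling by library totals and 12 under median-of-ratios and trimmed-mean scaling, and 1 lower with only the 2 genotypes fitted. Scaling by totals gave a median of 0.13 for gte4 against eml1 eml2. The interaction had 8 lower with no minimum mean (352 over all genes) and 9 under scaling by totals (330), and could not be had with only the 2 genotypes fitted. The cause of these changes was not tested.

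Leaving out 1 sample gave 27 to 33 higher in gte4 (median 0.24 to 0.30), 4 to 9 in eml1 eml2 (0.042 to 0.088), and 5 to 10 higher and 1 to 2 lower in the triple mutant (0.027 to 0.089). Over all genes it gave 1924 to 2729 higher in gte4 and 1897 to 2767 in eml1 eml2. For the triple mutant it gave 2710 to 3514 higher and 3348 to 4159 lower over all genes. It gave 1 to 25 lower in the triple mutant against gte4 (-0.25 to -0.16), 7 to 23 higher in gte4 against eml1 eml2 (0.14 to 0.22), 3 to 19 lower in the interaction (-0.31 to -0.23), and 0 to 4 paralog pairs. The median of the triple mutant was highest, at 0.089, without WT replicate 2.

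AT5G64140 (RPS28) lost its call in eml1 eml2 without any WT sample (adjusted p = 0.0617, 0.0521 and 0.0597) or without eml1 eml2 replicate 1 (0.0553) or 2 (0.108).

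With a replicate block alone, 0 paralog pairs were called by the exact test; the counts of called genes were 33 higher in gte4, 10 in eml1 eml2 and 9 for the triple mutant, 21 lower in the triple mutant against gte4, 23 higher in gte4 against eml1 eml2, and 18 lower in the interaction. Calls over all genes grew too under the block, for example to 3330 higher in gte4 (2693 without it), 1801 lower in the triple mutant against gte4 (1133) and 810 lower in the interaction (428). Over all genotypes, 10 of 12 libraries matched best with a library of their own number, a hint from the data and not from the design. For the triple mutant with WT and with gte4 the numbers did not meet the rule for pairing. Their replicate 2 correlations were -0.124 and -0.0745. Changes of genes with a mean under 1000 had a median SE of 0.12, which limits what could be called there.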
